A study of Homo sapiens with 3 samples.

Results

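Blood clotting at a cell surface and its reversal by plasmin are run by a small set of proteins, and 9 of their genes were followed here in macrophages made from THP-1 cells. The genes were F3, THBD, TFPI, PLAU, PLAUR, PLAT, SERPINB2, SERPINE2 and PROCR. They were chosen by name, as every array probe carrying 1 of these gene symbols, which gave 13 probes for 9 of the 41810 gene names on the array. THP-1 is an established human monocytic leukaemia line. On all 3 arrays the cells had been turned into macrophages with the phorbol ester PMA at 100 ng/ml for 24 to 36 h and rested overnight. The Ctrl array held RNA from cells that the label calls normal, with no agent named. The IMQ array held RNA from cells exposed to imiquimod, a synthetic agonist of the endosomal RNA sensor TLR7 that is used to provoke psoriasis-like inflammation. The third array, named IMQ+X in the label, held RNA from cells pretreated with DMD before imiquimod. X was read as DMD, a benzenediol from the fungus Antrodia cinnamomea, because the series title and the treatment protocol name no other agent, and the group is called IMQ+DMD below. The labels give 4 h, whereas the methods describe a longer exposure for the cell experiments. Each condition was measured on 1 array, so the spread between cultures is unknown and no p-value is given. The cultures are 1 cell line, and DMD alone was not analysed here.

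Tissue factor, the product of F3, is the membrane receptor that starts the clotting cascade by binding factor VII. The protein made from TFPI blocks the tissue factor complex. Thrombomodulin, encoded by THBD, captures thrombin and turns it towards activating protein C, which the receptor made from PROCR presents on the cell surface. Plasminogen is converted into plasmin, the enzyme that dissolves fibrin, by urokinase (PLAU) or tissue plasminogen activator (PLAT). Urokinase is held at the surface by its receptor, PLAUR. SERPINB2, also called plasminogen activator inhibitor type 2, inhibits urokinase and tissue plasminogen activator, and SERPINE2, or protease nexin-1, inhibits thrombin and urokinase. Monocytes and macrophages are known sources of tissue factor, urokinase, its receptor and SERPINB2.

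Each probe is a single strand of 60 bases that captures the matching labelled RNA. Of the coagulation genes, F3 was read at chr1:94995080-94995139, THBD at chr20:23026807-23026866 and PROCR at chr20:33764988-33765047. The 3 TFPI probes lie at chr2:188349518-188349577, chr2:188329008-188329067 and chr2:188343406-188343465, and are called TFPI probes 1, 2 and 3. Of the plasminogen genes, PLAUR was read at chr19:44169498-44169557. The coordinates are those of the array annotation, on build hg19, where F3, THBD, TFPI, PLAUR, PLAT and SERPINE2 run on the minus strand and PLAU, SERPINB2 and PROCR on the plus strand. No annotation of that build was used here, so exons and UTRs were not assigned. The sequences of 4 probes are given, 1 for each of the urokinase, urokinase receptor and serpin genes that were at least 2-fold higher with imiquimod, all in lower case. PLAU probe 2 lies at chr10:75674614-75674673, some distance before PLAU probe 1 at chr10:75677050-75677109. The SERPINE2 probe maps to chr2:224840597-224842295, a span of 1699 bases for 60 bases of probe, so it crosses at least 1 intron. SERPINB2 probe 1 lies at chr18:61570202-61570261 and SERPINB2 probe 2, designed to another transcript, at chr18:61538974-61539033.
PLAU probe 2: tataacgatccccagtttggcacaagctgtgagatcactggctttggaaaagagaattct
PLAUR: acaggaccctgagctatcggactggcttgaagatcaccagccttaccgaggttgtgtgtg
SERPINB2 probe 1: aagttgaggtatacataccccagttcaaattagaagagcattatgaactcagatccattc
SERPINE2: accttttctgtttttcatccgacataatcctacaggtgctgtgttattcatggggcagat

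The scanner software put 72.0% of the 58201 transcript probes well above background for Ctrl, 66.6% for IMQ and 71.9% for IMQ+DMD. Before normalization the median background-subtracted signal was 94.5 for Ctrl, 61.8 for IMQ and 76.4 for IMQ+DMD. Of 10 macrophage and monocyte markers, 8 were found by symbol and all 8 were well above background on every array, with a summed normalized intensity of 421111 on Ctrl, 327606 on IMQ and 304501 on IMQ+DMD. THBD, TFPI and PROCR are also typical of endothelial cells, and 5 to 6 of 6 endothelial markers were above background, with summed intensities of 6461, 6041 and 4904 in the same order, most of it PECAM1, which monocytes also express. PECAM1, CDH5, KDR, VWF and TIE1 were well above background on every array. TEK was dim, at 21.4 in Ctrl, and was well above background on that array alone. All 5 platelet markers were above background at summed intensities of 1164, 1073 and 1005. None of these lists had a higher sum on the IMQ array than on the Ctrl array, and their part in the results was not tested. The arrays measured RNA from whole cultures, in which fewer cells of a type and less RNA per cell cannot be told apart.

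**Figure D1:**
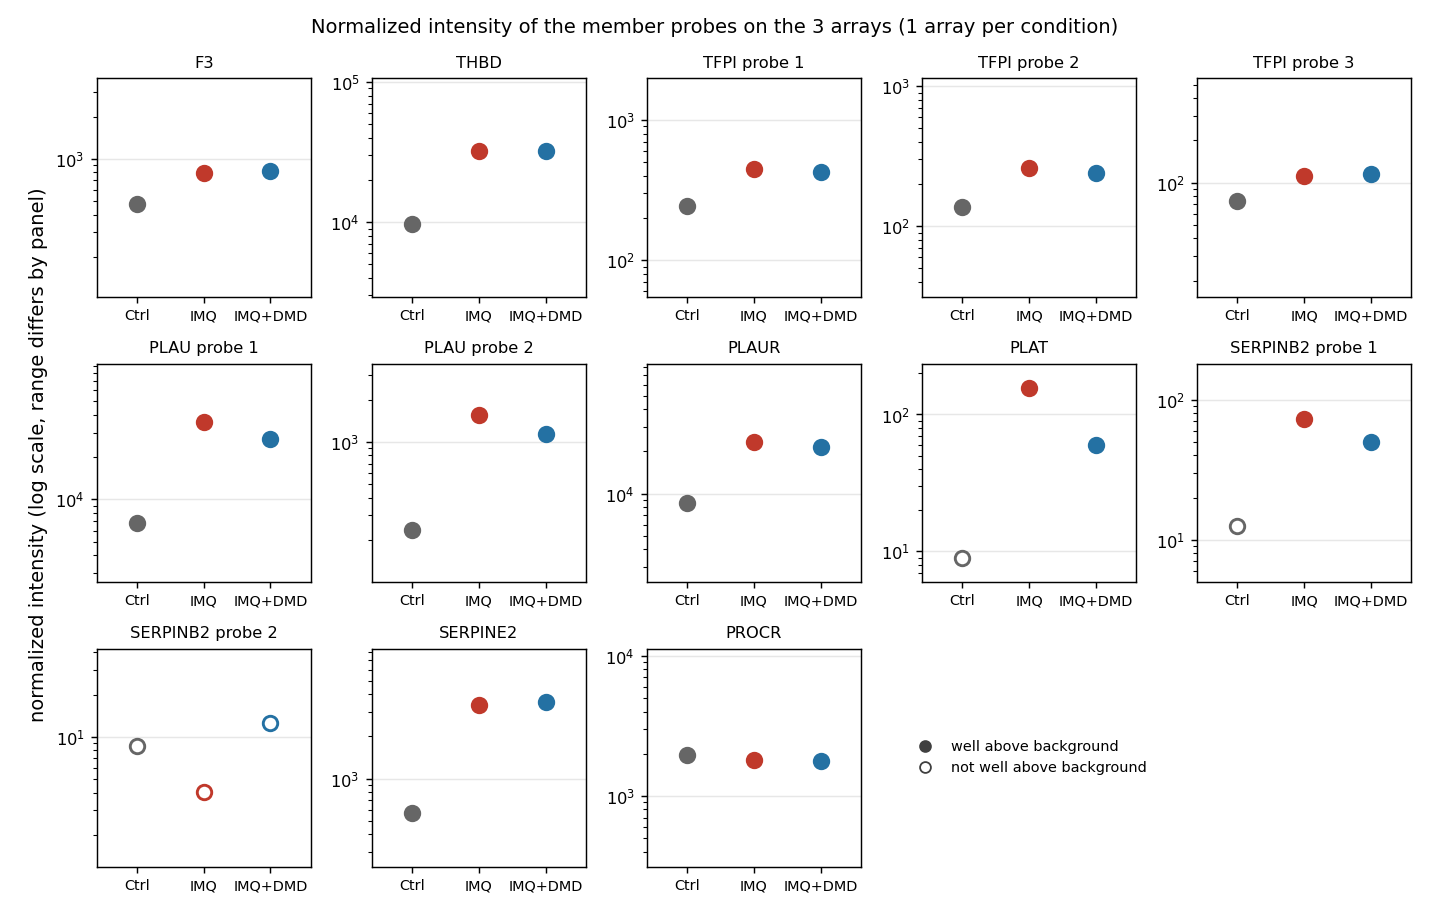
Normalized intensity (log axis, range set for each panel) of the 13 member probes on the Ctrl, IMQ and IMQ+DMD arrays, 1 point per array. Filled points are well above background and hollow points are not. In 11 panels IMQ lies above Ctrl, PROCR is nearly level, and SERPINB2 probe 2 is hollow on all 3 arrays.

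Imiquimod-treated cells had more RNA of the urokinase system and of both serpins than control cells. Of the 13 probes, 12 could be compared because they were well above background on the brighter array, and 7 of them, from 6 of the 9 genes, were at least 2-fold higher on the IMQ array. None was at least 2-fold lower. Over all transcript probes compared, 4.18% were at least 2-fold higher and 3.38% at least 2-fold lower. The median log2 difference between IMQ and Ctrl was 1.75 over the 9 member genes, taking the brightest probe of each, against -0.01 over all named genes. With both arrays required to be well above background, the median of the member genes left was 1.44. The genes were chosen with such values known, so these shares describe the set and do not test it.

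**Figure D2:**
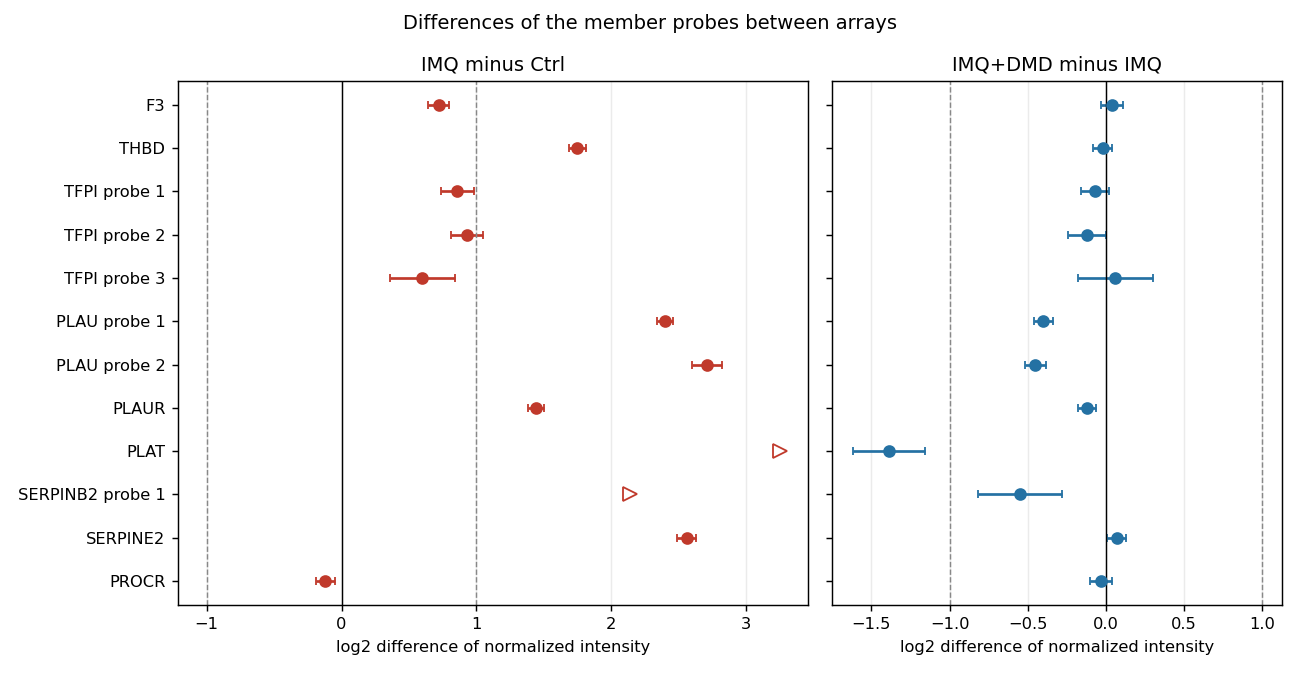
Log2 difference of normalized intensity for the 12 compared member probes, IMQ minus Ctrl on the left and IMQ+DMD minus IMQ on the right. Bars are ±1 SD between repeated spots of probes of like brightness and cover printing and scanning error only, hollow triangles are lower bounds, and dashed lines mark 2-fold. On the left 7 probes lie beyond 2-fold, and on the right PLAT alone does.

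Urokinase was among the members with the largest differences between IMQ and Ctrl, by both of its probes. PLAU probe 1 read a normalized intensity of 6755 in Ctrl, 35710 in IMQ and 27153 in IMQ+DMD. PLAU probe 2 read 236, 1543 and 1130 on the same arrays. Both probes were lowest in Ctrl, highest in IMQ and between them in IMQ+DMD. The IMQ value was 5.29-fold above Ctrl by probe 1 and 6.54-fold by probe 2, log2 differences of 2.40 and 2.71. The error of such a difference was taken from 300 probes that are printed at 10 spots on each array. It was 0.06 on the log2 scale for probe 1 and 0.11 for probe 2, 1 SD at their brightness. In the deposited values the probes thus differ from each other by more than spot error. Under the normexp background correction they were 2.36 and 2.43, within spot error of each other. In the deposited values 0.526% of all 42356 probes compared were as high as PLAU probe 1.

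PLAUR, the urokinase receptor, read 8565 in Ctrl, 23238 in IMQ and 21395 in IMQ+DMD. Both treated arrays lay well above Ctrl and close to each other. The IMQ value was 2.71-fold above Ctrl, a log2 difference of 1.44 with a spot SD of 0.06, and 1.99% of all compared probes were as high.

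PLAT, which encodes tissue plasminogen activator, was not well above background in Ctrl and had a low signal on both treated arrays. Its normalized intensity was 9.01 in Ctrl, 157 in IMQ and 59.6 in IMQ+DMD. The PLAT probe is 1 of those printed at 10 spots. In Ctrl the 10 spots had scanner signals from 4.15 to 27.4 with a median of 8.27, and 1 of the 10 was well above background. In IMQ the spots ran from 121 to 143 with a median of 131, and in IMQ+DMD from 47.5 to 65.6 with a median of 61.3. These signals are before normalization, where the median over all transcript spots also differed between the arrays. Spots on 1 array share the same RNA and are not replicates of a condition. For the comparison the Ctrl side was set to 16.5, the lowest normalized intensity of any probe well above background on that array. In the deposited values the IMQ level was then at least 9.50-fold that of Ctrl, a log2 bound of 3.25 with a spot SD of 0.49. The bound was 2.62 with the arrays scaled to the spike-in RNAs and 1.49 under the normexp background correction.

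**Figure D3:**
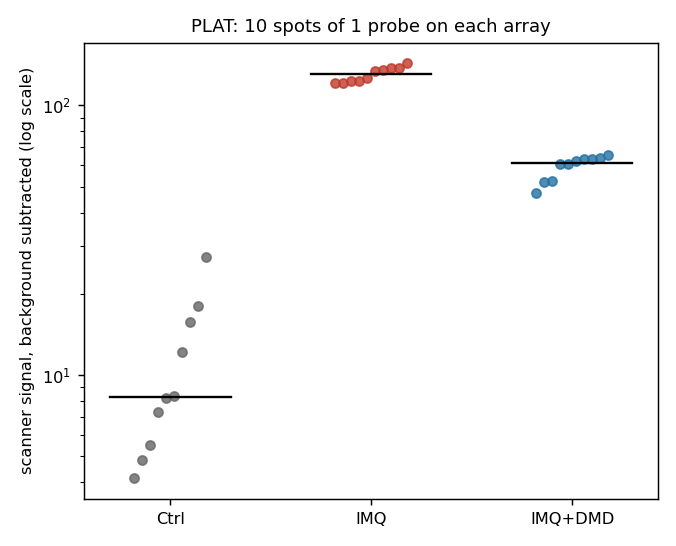
Background-subtracted scanner signal (log axis, before normalization) of the 10 spots of the PLAT probe on each of the 3 arrays, with the median as a line. Spots are placed in order of signal within an array. IMQ spots run from 121 to 143 and IMQ+DMD spots from 47.5 to 65.6.

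Of the inhibitors of these activators, SERPINE2 read 566 in Ctrl, 3332 in IMQ and 3510 in IMQ+DMD. The treated arrays were nearly level, and IMQ was 5.88-fold above Ctrl, a log2 difference of 2.56 with a spot SD of 0.07. SERPINB2 was dim. SERPINB2 probe 1 read 12.5 in Ctrl, not well above background, 72.6 in IMQ and 49.7 in IMQ+DMD. In the deposited values the IMQ level was at least 4.41-fold that of Ctrl, a log2 bound of 2.14 with a spot SD of 0.51. The bound was 1.45 with the arrays scaled to the spike-in RNAs and 0.80 under normexp. SERPINB2 probe 2 read 8.52, 4.01 and 12.5 and was not well above background on any array, so it gives no direction.

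On the coagulation side the differences were smaller, apart from thrombomodulin. THBD read 9659 in Ctrl, 32412 in IMQ and 32018 in IMQ+DMD. The treated arrays were level, with a log2 difference of -0.02 between IMQ+DMD and IMQ, and IMQ was 3.36-fold above Ctrl, a log2 difference of 1.75 with a spot SD of 0.06. F3, the initiator, read 479, 791 and 813 in Ctrl, IMQ and IMQ+DMD, which put IMQ 1.65-fold above Ctrl. TFPI probe 1 read 245, 444 and 424 on the same arrays, TFPI probe 2 read 137, 261 and 241, and TFPI probe 3 read 73.3, 111 and 116. All 3 TFPI probes were lowest in Ctrl. Their log2 differences between IMQ and Ctrl were 0.86, 0.93 and 0.60, with spot SDs of 0.12, 0.12 and 0.24, all short of 2-fold. Probes 2 and 3 are annotated to transcript variants 1 and 2 of the gene. PROCR, the protein C receptor, read 1969 in Ctrl, 1813 in IMQ and 1778 in IMQ+DMD, a log2 difference between IMQ and Ctrl of -0.12 with a spot SD of 0.07.

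The size of the smaller differences rested on the scaling of the arrays. Without any scaling the median of all probes measured on both arrays was -0.49 between IMQ and Ctrl, and with scaling to the spike-in RNAs it was -0.56, against 0 in the deposited values. The 7 probes beyond 2-fold stayed beyond it under all 4 other scalings, and SERPINB2 probe 1 alone fell short, at 0.80, under normexp. With spike-in scaling the shares over all transcript probes were 1.54% higher and 18.8% lower. Under those 2 scalings F3 went down to 0.31 and 0.24. TFPI probe 3 went to 0.02 without scaling and turned to -0.05 with the spike-ins, and PROCR went to -0.52 and -0.59.

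**Figure D4:**
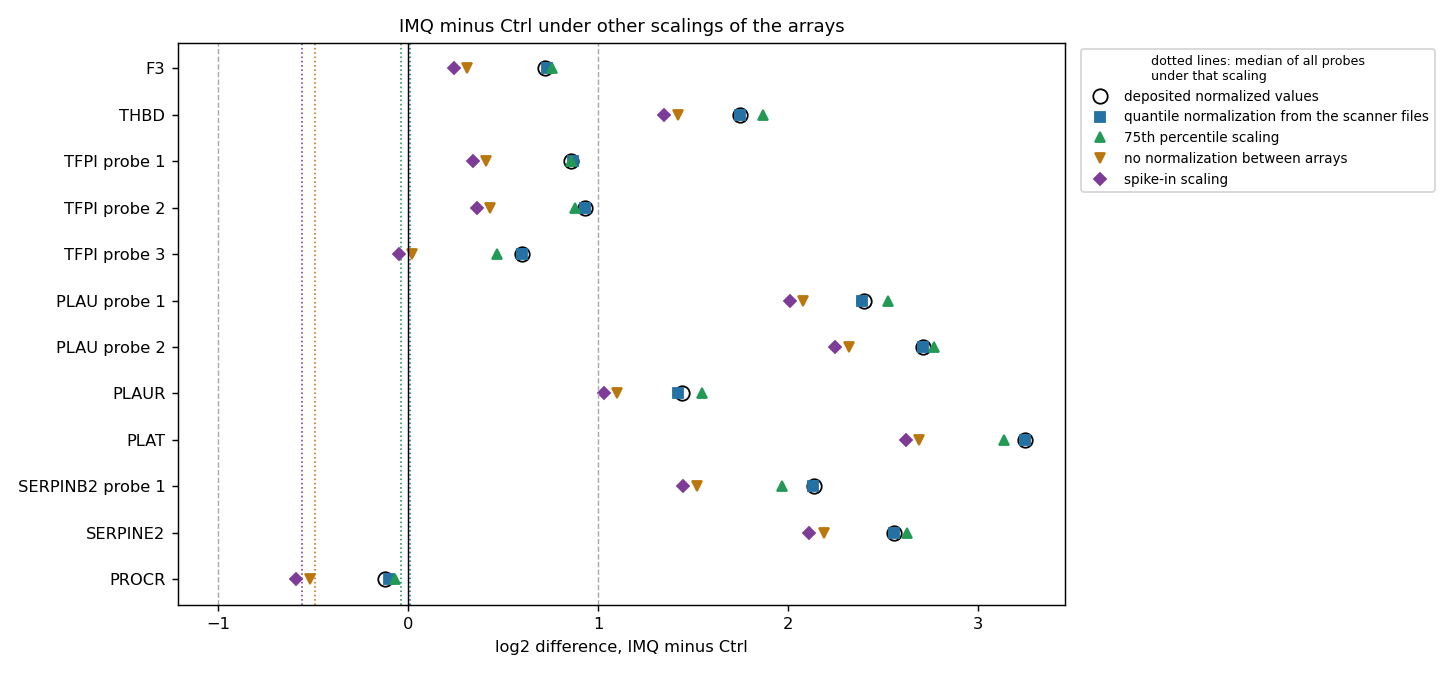
Log2 difference between IMQ and Ctrl of the 12 compared member probes under 5 scalings of the arrays, with PLAT and SERPINB2 probe 1 as lower bounds. Dashed lines mark 2-fold and dotted lines the median of all probes under that scaling. All markers of THBD, both PLAU probes, PLAUR, PLAT, SERPINB2 probe 1 and SERPINE2 lie to the right of 2-fold, and those of F3 and TFPI to its left.

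DMD given before imiquimod left most of these differences in place. Between IMQ+DMD and IMQ none of the 12 compared probes was at least 2-fold higher and 1, PLAT, was at least 2-fold lower, where 1.06% of all transcript probes were higher and 1.27% lower by that much. The comparison uses the same IMQ array as the comparison with Ctrl, so an IMQ value that is high by error would raise one difference and lower the other. With spike-in scaling the shares over all probes were 6.43% higher and 0.396% lower, and PLAT was again the 1 member probe past 2-fold. The median log2 difference was -0.07 over the 9 genes.

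PLAT had the lowest log2 difference of the set, -1.39, a 2.63-fold lower level in IMQ+DMD than in IMQ with a spot SD of 0.23. Of 42000 compared probes, 0.46% were as low. Without scaling it was -1.15, and scaling to the spike-ins brought it to -1.01. With normexp, which adds an offset of 50 to every signal and so shrinks differences between dim probes, it was -0.82 and no member passed 2-fold. SERPINB2 probe 1 differed by -0.55, with a spot SD of 0.27, and by -0.22 without scaling or with normexp and -0.09 with spike-in scaling. The PLAU probes differed by -0.40 and -0.45, 1.32-fold and 1.37-fold lower, with spot SDs of 0.06 and 0.07. Both exceed spot error, but among all compared probes 11.6% and 9.45% were as low. The other 8 probes lay between -0.12 and 0.07. These were F3, THBD, the TFPI probes, PLAUR, SERPINE2 and PROCR, and the direction of F3, TFPI probes 1 and 2, SERPINE2 and PROCR turned with the scaling.

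Against untreated cells the IMQ+DMD array therefore kept the pattern. Again 7 probes from 6 genes were at least 2-fold higher, and none was lower, against 3.08% and 4.91% of all transcript probes. All 7 were the probes already named. SERPINE2 had the largest log2 difference, 2.63, or 6.20-fold. The PLAU probes stood 4.02-fold and 4.79-fold above Ctrl, THBD 3.31-fold and PLAUR 2.50-fold. In the deposited values PLAT was at least 3.61-fold and SERPINB2 probe 1 at least 3.02-fold above Ctrl, each with a spot SD of 0.52. Under normexp both fell short of 2-fold, at 0.67 and 0.58 on the log2 scale. That left 5 probes, where 1.48% of all transcript probes were higher. Without scaling or with spike-in scaling PLAUR fell short of 2-fold, at 0.86 and 0.92 on the log2 scale. Set against the log2 difference that imiquimod alone made, the part that remained with DMD was 99.0% for THBD, 102.9% for SERPINE2, 91.7% for PLAUR, and 83.5% and 83.4% for PLAU probes 1 and 2. Without scaling the same parts were 89.8%, 98.3%, 78.0%, 74.6% and 77.1%. No part is given for PLAT and SERPINB2, whose differences from Ctrl are bounds.

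Beyond the members, 52 related genes of clotting and fibrinolysis were listed, of clotting factors, their inhibitors, thrombin receptors, plasminogen and its binding proteins, and fibrin cross-linkers. All 52 had a probe, 71 in total, and 38 genes were well above background on every array while 11 were so on none. Between IMQ and Ctrl 54 of these probes were compared, 4 were at least 2-fold higher and 1 was lower, with a median log2 difference of 0.00. Between IMQ+DMD and IMQ 53 were compared, none was 2-fold higher and 2 were lower, with a median of -0.08. Between IMQ+DMD and Ctrl 1 was higher and 4 were lower. Over all transcript probes the shares past 2-fold were 4.18% higher and 3.38% lower, 1.06% and 1.27%, and 3.08% and 4.91% in the same 3 comparisons, so nothing particular to the list is read from its counts. The counts also turned with the scaling. With the spike-ins 1 related probe was at least 2-fold higher in IMQ than in Ctrl and 10 were lower. Over all transcript probes 1.54% were then higher and 18.8% lower. Between IMQ+DMD and IMQ 1 related probe was higher and 0 were lower, against 6.43% and 0.396% of all transcript probes. The shares over all probes thus turned as well. TFPI2 was beyond 2-fold in IMQ against Ctrl under every scaling, at 2.75 or more.

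TFPI2, a Kunitz-type inhibitor of plasmin and other serine proteases, read 936 in Ctrl, 8508 in IMQ and 5785 in IMQ+DMD. It followed the order seen for PLAU, with log2 differences of 3.18 between IMQ and Ctrl and -0.56 between IMQ+DMD and IMQ. The integrin subunit ITGAV, part of the vitronectin receptor, read 4852, 9943 and 9676, a log2 difference of 1.04 between IMQ and Ctrl that fell to 0.62 with spike-in scaling. TGM2, tissue transglutaminase, had 1 probe at 130, 302 and 189 and another at 632, 1218 and 970, so both were highest in IMQ. Fibrinogen gamma chain, FGG, was well above background on the IMQ array alone, at 35.0.

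The lower genes of that list were few and dim. With normexp no related probe was at least 2-fold lower in any comparison. Over all transcript probes 1.69% were then lower in IMQ than in Ctrl, 0.0905% in IMQ+DMD than in IMQ and 2.25% in IMQ+DMD than in Ctrl. F13A1 encodes the A subunit of the clot-stabilising factor XIII and is a marker of some macrophage states. Its brighter probe read 209 in Ctrl, 78.5 in IMQ and 96.2 in IMQ+DMD. The log2 difference between IMQ and Ctrl was -1.42, and -0.94 with normexp. Its other probe read 10.4, 4.06 and 4 and was not well above background on any array. F12, clotting factor XII, read 84.3, 59.4 and 39.5, and was -1.09 between IMQ+DMD and Ctrl, or -0.44 with normexp. FGL2, a membrane prothrombinase, read 38.3 in Ctrl, 4.04 in IMQ and 3.93 in IMQ+DMD, the latter 2 not well above background. The thrombin receptor F2R was read by 2 probes that disagreed. One probe read 111, 60.7 and 28, and the other 102, 79.8 and 118. The log2 difference between IMQ+DMD and IMQ was thus -1.11 by the first and 0.56 by the second. With normexp these were -0.37 and 0.34.

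**Figure D5:**
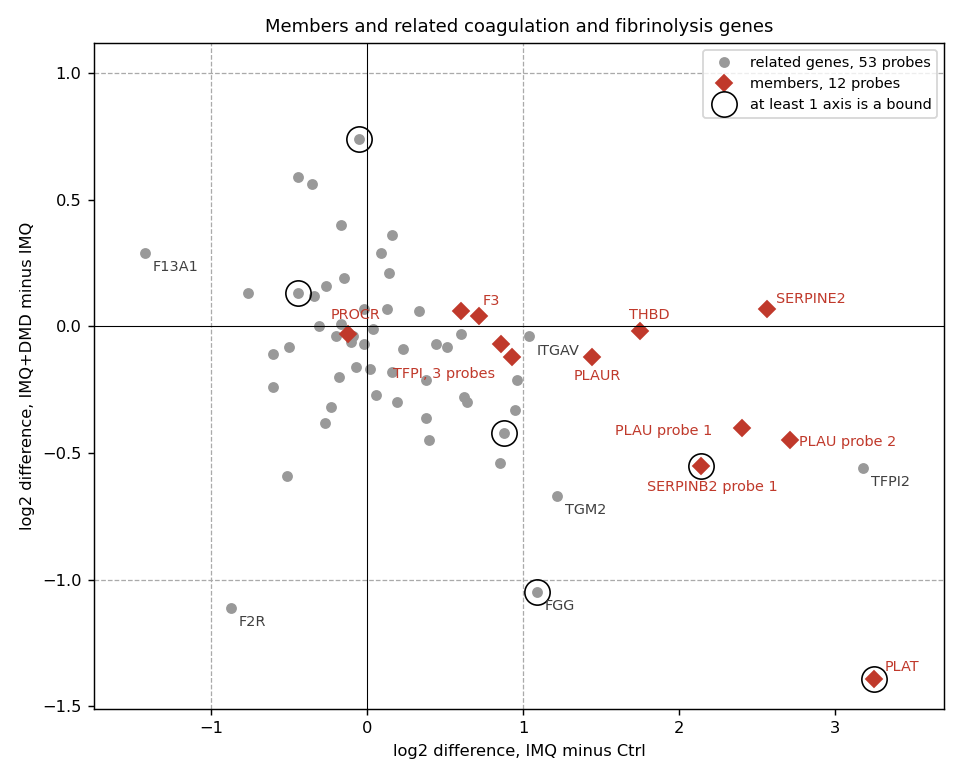
Log2 difference between IMQ and Ctrl (horizontal) against that between IMQ+DMD and IMQ (vertical) for 12 member probes (red diamonds) and 53 probes of related genes (grey). Circled points are bounds on at least 1 axis, dashed lines mark 2-fold, and the 2 axes share the IMQ array. Member probes lie to the right except PROCR, TFPI2 lies among them, and PLAT is lowest.

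Because most of these genes were higher together on the IMQ array, their promoters were read from RefSeq on build GRCh38.p14, as the 250 bases before each start site. The table held 7 of the 9 genes, F3, TFPI, PLAU, PLAUR, SERPINB2, SERPINE2 and PROCR, and not THBD and PLAT. PLAU and SERPINE2 had 2 start sites each and the others 1, whereas the shares below are over single promoters. The AP-1 motif TGANTCA, searched on both strands, was present in 6.57% of 35116 promoters. Among the 7 genes it was found in F3, PLAUR and SERPINB2, which are printed with the match in capitals. F3 holds 2 matches, beginning 223 and 210 bases before the start, PLAUR holds 1 at 186 bases and SERPINB2 holds 1 at 102 bases. F3, which was short of 2-fold, and PLAUR and SERPINB2, which were beyond it, all have a match. PLAU and SERPINE2 have none in this window at either start site. The other motifs were searched on both strands as well. The EGR motif GCGNGGGCG, present in 8.41% of all promoters, was found in F3 and, as its reverse complement, in PLAUR. TATAAA, present in 10.7%, was found in SERPINB2 and, as the reverse complement TTTATA, in F3 and PROCR. The CRE motif TGACGTCA, present in 1.65%, was in none of the 7. A match is a string of letters, and binding was not measured. The F3 stretch is chr1:94541760-94542009 on the minus strand, the PLAUR stretch chr19:43670170-43670419 on the minus strand and the SERPINB2 stretch chr18:63887455-63887704 on the plus strand.
F3: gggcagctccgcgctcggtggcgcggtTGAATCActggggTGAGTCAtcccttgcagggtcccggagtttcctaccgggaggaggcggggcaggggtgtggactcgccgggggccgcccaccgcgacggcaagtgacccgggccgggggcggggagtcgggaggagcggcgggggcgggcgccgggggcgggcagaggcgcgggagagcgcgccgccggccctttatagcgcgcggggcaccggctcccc
PLAUR: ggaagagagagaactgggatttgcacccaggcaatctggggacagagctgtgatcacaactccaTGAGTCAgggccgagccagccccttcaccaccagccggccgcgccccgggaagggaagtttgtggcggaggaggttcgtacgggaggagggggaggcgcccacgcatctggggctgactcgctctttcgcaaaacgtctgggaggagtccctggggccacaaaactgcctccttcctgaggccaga
SERPINB2: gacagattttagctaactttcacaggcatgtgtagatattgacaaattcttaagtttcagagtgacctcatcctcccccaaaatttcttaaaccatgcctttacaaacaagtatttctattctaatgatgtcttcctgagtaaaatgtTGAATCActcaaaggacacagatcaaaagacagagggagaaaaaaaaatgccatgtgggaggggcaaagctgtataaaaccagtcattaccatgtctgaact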

How the data were processed

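Total RNA of 3 THP-1 cultures was hybridised to 1-colour (Cy3) Agilent arrays of design 072363, which share 1 slide, and read with Feature Extraction 10.5.1.1 on build hg19. The authors deposited scanner files and a table of quantile-normalized intensity for each probe, which is the unit used here. Its raw intensity equals the scanner signal within 0.1% for all 57901 probes printed at 1 spot. The values were taken to the log2 scale. Comparison of a probe required that its brighter array be well above background. Where the other array was dim, its value was raised, if lower, to the least value of any probe well above background there, and the difference is then a bound. No test was run, with 1 array per condition. Named genes were all 9 members and those of the 52 related genes with a probe at least 2-fold different in any comparison, plus cell type markers. The members and lists were chosen with earlier results of these data known. Further markers gave the following summed intensities in Ctrl, IMQ and IMQ+DMD: fibroblast 172, 146 and 178, epithelial 98, 82 and 121, T cell 688, 592 and 697, B cell 4671, 3800 and 4511, hepatocyte 120, 159 and 136. Alternatives were quantile normalization from the scanner files, 75th percentile scaling, no scaling, scaling to 8 spike-in probes, normexp with an offset of 50 (limma 3.58.1, R 4.3.3), other filters on dim probes and other fold thresholds. The calling rule was run on simulated data with differences past its threshold planted in bright probes. That run does not cover noise in dim probes such as PLAT and SERPINB2. Python 3.11.15, numpy 2.4.6 and pandas 2.3.3 were used.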

Additional observations from a re-analysis of the deposited data

How the results depend on the processing

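No member probe whose difference was at least 2-fold changed direction under any alternative. The count of 7 probes at least 2-fold higher in IMQ than in Ctrl became 11 at a 1.5-fold threshold. The count for IMQ+DMD against Ctrl also became 11, and was 3 at a 4-fold threshold. Over all transcript probes 10.9% for IMQ and 9.77% for IMQ+DMD were at least 1.5-fold above Ctrl. At 4-fold 0.616% were higher for IMQ+DMD against Ctrl. Where both arrays had to be well above background, 5 member probes were at least 2-fold higher in each comparison with Ctrl. Over all transcript probes 3.49% for IMQ and 2.61% for IMQ+DMD were then higher. PLAT was the 1 probe at least 2-fold lower in IMQ+DMD than in IMQ. That count was 0 with normexp and 0 at a 4-fold threshold. Over all transcript probes 0.0905% were at least 2-fold lower there with normexp, and 0.0952% at least 4-fold lower in the deposited values. With normexp the 7 became 6 for IMQ and 5 for IMQ+DMD against Ctrl, where 1.72% and 1.48% of all transcript probes were higher. With neither floor nor filter on dim probes, SERPINB2 probe 2 counted as 1 probe lower in IMQ than in Ctrl and 1 higher in IMQ+DMD than in IMQ. That probe is not well above background on any array. Under that setting 6.62% of all transcript probes were lower in the first comparison and 4.28% higher in the second. Quantile normalization from the scanner files repeats the method of the deposited values. Leaving out floor and filter does not alter probes well above background on both arrays. The first setting could therefore move little, and the second could move only differences with a dim side. Between IMQ and Ctrl the second took PLAT from 3.25 to 4.12 and SERPINB2 probe 1 from 2.14 to 2.54. Both settings are counted in what follows. Of 216 differences of member probes recomputed, 123 moved by less than spot error, 93 by more, and 9 turned sign, 8 of them between IMQ+DMD and IMQ. In that comparison the calls were split unlike the main values by scaling: 45.5% of the calls were higher in the deposited values, 82.8% with 75th percentile scaling, 87.9% without scaling and 94.2% with spike-in scaling. Between IMQ and Ctrl the share was 55.3%, 44.1%, 9.87% and 7.59%, and between IMQ+DMD and Ctrl 38.6%, 41.8%, 13% and 16.1%. The scalings of the related genes and of the part remaining with DMD were added after the data were seen, and under them F2R turned sign by its second probe between IMQ+DMD and Ctrl, at 0.20 in the deposited values and between -0.12 and 0.27 otherwise. No paired analysis was possible because each condition has 1 array. The precision of dim probes such as PLAT and SERPINB2 is limited by their signal over background.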
